A study of Rattus norvegicus with 22 samples.

Results

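The genes described here are 9 chemokines, Ccl2, Ccl3, Ccl4, Ccl7, Cxcl1, Cxcl10, Cxcl16, Cxcl12 and Cx3cl1, taken by name from the 17172 genes counted in the injured hippocampus of the rat. Adult male Sprague-Dawley rats received traumatic brain injury (TBI) by lateral fluid percussion, a pressure pulse on the exposed dura, or a sham operation with the same anesthesia and craniotomy but no pulse. The hippocampus on the injured side was taken whole for RNA-seq at day 1 (2 sham and 4 TBI rats) or day 14 (4 sham and 4 TBI rats), so there were 14 libraries in 4 groups. No genotype differed between the groups, and every library was a bulk mixture of cells, in which fewer cells of a type and less RNA per cell cannot be told apart.

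Chemokines are small secreted proteins that guide leukocytes through G protein-coupled receptors on the leukocyte surface. Inflammatory members such as CCL2 and CXCL1 are made on demand by glia, endothelium and infiltrating cells after tissue damage and draw monocytes and neutrophils. The homeostatic members differ: CXCL12 positions cells and is made in the normal hippocampus, while CX3CL1 (fractalkine) is a membrane-bound neuronal ligand that signals to microglia.

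The promoters of inflammatory chemokines are known for NF-kappaB and interferon response elements. The 250 bases before the transcript start (RefSeq, build GRCr8) were at hand for 6 of the 9 genes and were searched on both strands for the NF-kappaB motif, for the AP-1 motif TGANTCA, for the interferon response motif GAAANNGAAA, for TATAAA and for the GC box GGGCGG. Below are 3 of the inducible genes and the 2 homeostatic genes, to set their promoters side by side, in lower case from 5′ to 3′ with every match in capitals.
Cxcl10 promoter, chr14:15988816-15989065, plus strand: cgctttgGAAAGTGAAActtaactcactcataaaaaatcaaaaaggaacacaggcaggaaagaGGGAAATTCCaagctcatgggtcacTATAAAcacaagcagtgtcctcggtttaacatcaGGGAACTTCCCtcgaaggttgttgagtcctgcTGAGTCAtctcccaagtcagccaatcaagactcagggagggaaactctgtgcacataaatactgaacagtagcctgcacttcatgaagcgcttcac
Cxcl1 promoter, chr14:17479322-17479571, minus strand: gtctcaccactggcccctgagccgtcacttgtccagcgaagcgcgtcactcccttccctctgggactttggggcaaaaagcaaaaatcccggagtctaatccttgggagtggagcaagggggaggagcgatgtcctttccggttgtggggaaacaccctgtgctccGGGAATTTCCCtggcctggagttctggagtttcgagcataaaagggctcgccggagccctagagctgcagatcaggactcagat
Ccl7 promoter, chr10:67513845-67514094, plus strand: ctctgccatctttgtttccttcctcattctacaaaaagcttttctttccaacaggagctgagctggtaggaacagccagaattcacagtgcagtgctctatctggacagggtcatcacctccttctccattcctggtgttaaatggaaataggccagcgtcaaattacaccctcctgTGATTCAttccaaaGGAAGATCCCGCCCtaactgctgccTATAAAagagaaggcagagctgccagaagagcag
Cx3cl1 promoter, chr19:10242821-10243070, minus strand: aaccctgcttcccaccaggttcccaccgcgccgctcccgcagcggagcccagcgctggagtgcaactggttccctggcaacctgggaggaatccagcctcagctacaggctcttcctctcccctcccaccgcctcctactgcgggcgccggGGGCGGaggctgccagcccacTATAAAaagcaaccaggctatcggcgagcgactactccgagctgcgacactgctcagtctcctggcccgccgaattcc
Cxcl12 promoter, chr4:152060531-152060780, plus strand: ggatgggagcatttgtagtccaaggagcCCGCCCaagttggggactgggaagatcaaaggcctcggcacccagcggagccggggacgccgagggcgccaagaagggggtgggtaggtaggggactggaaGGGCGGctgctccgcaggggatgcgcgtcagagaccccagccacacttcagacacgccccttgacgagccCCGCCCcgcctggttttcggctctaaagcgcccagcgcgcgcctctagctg
The Cxcl10 promoter held NF-kappaB motifs at 187 to 178 and 128 to 119 bases before the start, the second of which also matched on the other strand, with an interferon response motif at 243 to 234 and an AP-1 motif at 96 to 90. Cxcl1 held a single NF-kappaB stretch, 84 to 74 bases before the start, that matched on both strands. In Ccl7 an NF-kappaB match on the minus strand at 59 to 50 overlapped a GC box at 51 to 46, with AP-1 at 73 to 67 and TATAAA at 34 to 29. No NF-kappaB, AP-1 or interferon response match stood in the windows of Cx3cl1 and Cxcl12, which held 1 and 3 GC boxes. TATAAA also stood at 78 to 73 in Cx3cl1 and at 162 to 157 in Cxcl10. None of the 5 motifs matched in the window of Cxcl16. Of 27455 promoters of the same length, 6.41% held the NF-kappaB motif, 6.36% the AP-1 motif, 3.29% the interferon response motif, 13.1% TATAAA and 32.4% the GC box. The same windows held 18 and 20 CpG dinucleotides in Cx3cl1 and Cxcl12, against 2, 4, 11 and 8 in Ccl7, Cxcl10, Cxcl1 and Cxcl16 and a median of 6 over all promoters. A match is a string of letters and says nothing of binding.

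Totals ran from 15065540 to 23743703 counts per library. CPM are counts per 1000000 of the library size, with library sizes scaled by edgeR's TMM factors, and log2 CPM has a prior count of 2. edgeR's quasi-likelihood test was run on 12875 genes that passed a filter on low counts, with calls at a Benjamini-Hochberg adjusted p under 0.05. All 10 hippocampal neuron markers listed were counted. Choroid plexus markers, summed over 14 genes, reached 9010 CPM in sham day 1 replicate 1, 1570 in TBI day 14 replicate 2 and 7700 in TBI day 14 replicate 3, against 22.2 to 32.5 CPM in every other library. One of the only 2 sham day 1 libraries is therefore among those 3, and day 1 results of the members that turn on it are given with and without it.

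At day 1 the inflammatory chemokines were far above sham, and the homeostatic pair was below it. Of the 8 members tested, Ccl2, Ccl3, Ccl7, Cxcl1, Cxcl10 and Cxcl16 were called higher (11.2% of all genes tested were) and Cxcl12 and Cx3cl1 were called lower (7.93% of all genes tested were). At day 14 only Ccl3 and Cxcl16 were called higher (4.07% of all genes were). No member was called lower at day 14 (0.365% of all genes were) by edgeR, limma-voom or DESeq2, and 0 were at an unadjusted p under 0.05. Leaving out the 3 choroid plexus libraries gave 5 higher and 2 lower at day 1 and 3 higher at day 14, leaving out sham day 1 replicate 2 gave 0 lower at day 1, and leaving out TBI day 1 replicate 2 gave 5 higher at day 14. Fewer of all genes were also called at day 1 without sham day 1 replicate 2. Ccl2, Ccl3, Ccl7 and Cxcl1 would not have passed the filter on sham libraries alone, so they could be tested only because they were high after injury, and Ccl4 did not pass it. Every member had day 1 groups that did not overlap, in the directions given, with Ccl4 also higher. Of all genes tested, 16.7% lay wholly higher and 14.1% wholly lower. At day 14 the TBI libraries lay wholly above sham for Ccl2, Ccl3, Ccl7, Cxcl10 and Cxcl16, as for 9.13% of all genes, and for Ccl4 only after scaling by library size.

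**Figure D1:**
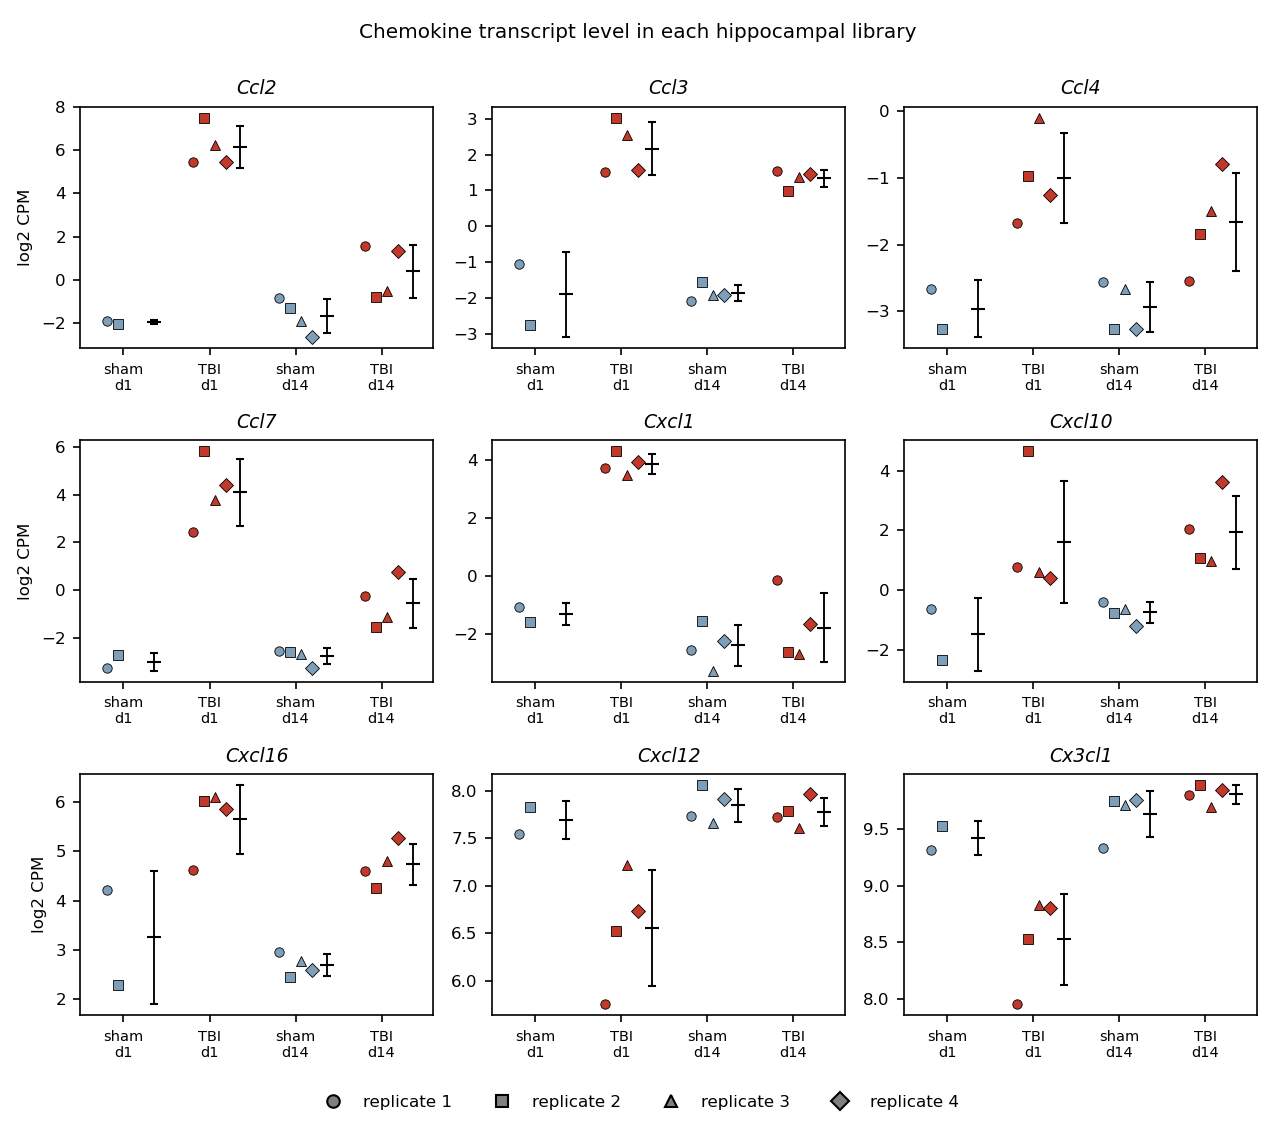
Level of each chemokine (log2 CPM, y axis, a scale of its own in each panel) in the 14 libraries, by group; symbols give the replicate number, and the bars beside them the mean and SD. Blue sham and red TBI points are apart at day 1 in every panel, while Cxcl1, Cxcl12 and Cx3cl1 overlap at day 14.

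**Figure D2:**
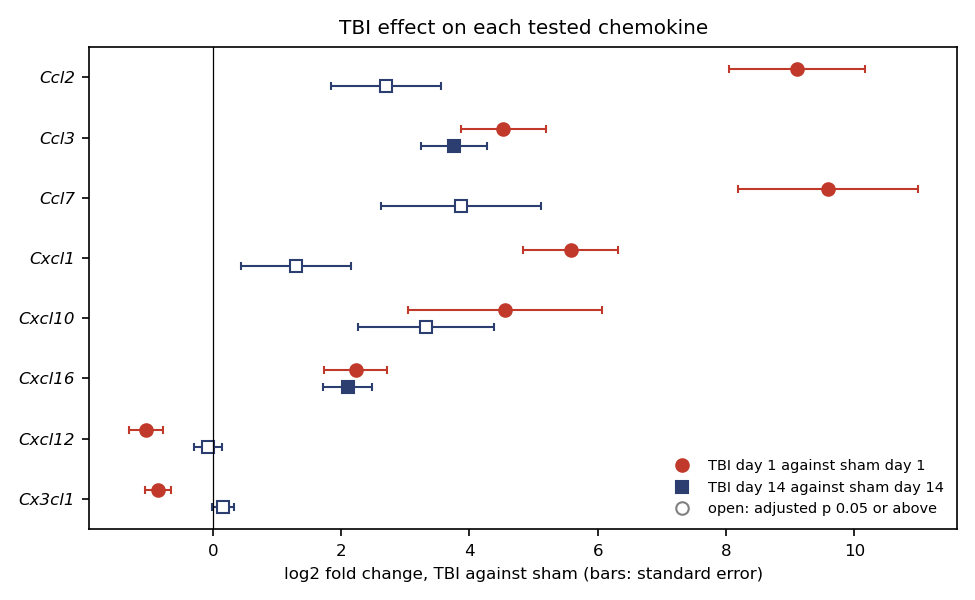
Log2 fold change of TBI against sham (x axis) with its standard error for the 8 chemokines tested, day 1 in red and day 14 in blue; filled symbols passed the adjusted p of 0.05. Values at day 1 run from -1.05 for Cxcl12 to 9.59 for Ccl7, and at day 14 only Ccl3 and Cxcl16 are filled.

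Ccl2 (monocyte chemoattractant protein 1) binds CCR2 and recruits monocytes. It had 3 and 3 counts in the sham day 1 libraries and 850, 4462, 1640 and 966 in TBI day 1. At day 14 it had 7, 5, 3 and 1 counts in sham and 43, 8, 12 and 46 in TBI. All 4 injured libraries at day 1 were above every other library, with replicate 2 highest, and replicates 1 and 4 were the higher pair at day 14. The summed counts gave a ratio of 603 at day 1 (95% exact interval 277 to 1640, counting error only), and the log2 fold change was 9.11 (SE 1.06, adjusted p = 5.16e-05). At day 14 the log2 fold change was 2.70 (SE 0.853, adjusted p = 0.111), which was not called, although DESeq2 gave an adjusted p of 0.0135. Between the injured groups, day 14 was lower by a log2 fold change of -5.78 (adjusted p = 9.59e-06). The TBI effect at day 1 exceeded that at day 14 by 6.41 on the log2 scale (adjusted p = 0.0455), a call that was lost in 10 of 14 fits that each left out 1 library. Neighbouring groups in the order TBI day 1, TBI day 14, sham day 14 and sham day 1 differed only at the first step.

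Ccl7 (monocyte chemoattractant protein 3), the gene next to Ccl2 on chromosome 10, is a further monocyte attractant. Its counts were 0 and 1 in sham day 1 and 102, 1381, 294 and 475 in TBI day 1. Sham day 14 had 1, 1, 1 and 0 counts and TBI day 14 had 11, 4, 7 and 30. As for Ccl2, replicate 2 was highest among the injured libraries of day 1 and replicates 1 and 4 were highest at day 14. A single sham count stood against 2252 at day 1, a ratio of 1030 with an exact interval of 185 to 40700. The fitted value of 9.59 on the log2 scale (SE 1.40, adjusted p = 0.00033) was not called by limma-voom (8.67, adjusted p = 0.051). With 1 library left out it was called by edgeR in all 14 fits and ran from 8.73, without TBI day 1 replicate 2, to 11.83, without sham day 1 replicate 2, where the sole sham library left was at 0 and the fitted size is no bound. At day 14 the ratio of summed counts was 16.7 (exact interval 5.42 to 83.8), and the log2 fold change of 3.87 was not called by edgeR (adjusted p = 0.124). From TBI day 1 to TBI day 14 it fell by 5.04 on the log2 scale (adjusted p = 7.68e-05). The TBI effects of the 2 days differed by 5.72, which was not called (adjusted p = 0.343). The order of the groups was that of Ccl2, and again only the first step was called.

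Markers of monocytes moved with these genes at day 1, when 7 of 10 were higher (11.2% of all genes tested were). Their summed level at that day was 1200 to 1370 CPM in TBI against 242 to 329 in sham. At day 14 the sums were 324 to 486 in TBI against 266 to 342 in sham. Of the 10, 2 were higher at day 14, where 4.07% of all genes were. None of the 10 was at 0 throughout, and their part in the Ccl2 and Ccl7 counts was not tested. Ccr2, the receptor of both, had no entry of that name among the genes counted.

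Ccl3 (macrophage inflammatory protein 1 alpha) is a CCR1 ligand made by activated microglia and macrophages. Counts were 7 and 1 in sham day 1, 53, 197, 124 and 64 in TBI day 1, 2, 4, 3 and 3 in sham day 14, and 42, 32, 50 and 50 in TBI day 14. All 8 injured libraries were above all 6 sham libraries, and the day 14 injured libraries were close together, within a factor of 1.49 in CPM. On the log2 scale Ccl3 rose by 4.53 ± 0.661 (SE) at day 1, with an adjusted p of 0.000334, and by 3.76 ± 0.515 at day 14, with an adjusted p of 0.000324. The ratios of summed counts were 25.0 (exact interval 12.6 to 58.3) and 14.0 (7.81 to 27.6). The day 1 value depended on the sham pair, being 6.52 without sham day 1 replicate 1 and 3.66 without replicate 2, with both still called. TBI day 14 was not called different from TBI day 1 (log2 fold change -0.98, adjusted p = 0.0546), nor did the effects of the 2 days differ by the test (adjusted p = 0.67). In the order TBI day 1, TBI day 14, sham day 14 and sham day 1, the step between TBI day 14 and sham day 14 was the sole one called.

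Ccl4 (macrophage inflammatory protein 1 beta), the neighbour of Ccl3 on chromosome 10, was barely counted. It had 1 and 0 counts in sham day 1 and 4, 10, 18 and 7 in TBI day 1. It had 1, 0, 1 and 0 in sham day 14 and 1, 3, 5 and 9 in TBI day 14. The injured libraries were the higher at both days, with replicate 1 at 1 count at day 14, level with the highest sham counts. The ratios of summed counts were 17.8 at day 1 (exact interval 3.02 to 722) and 8.69 at day 14 (2.08 to 77.2). With no filter on low counts edgeR gave log2 fold changes of 3.81 (adjusted p = 0.0367) and 2.83 (adjusted p = 0.164).

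Cxcl1, the CXCR2 ligand that recruits neutrophils, was called at day 1 only. It had 7 and 5 counts in sham day 1 and 253, 478, 240 and 333 in TBI day 1. By day 14 it had 1, 4, 0 and 2 in sham and 12, 1, 1 and 4 in TBI. The 4 injured libraries of day 1 lay within a factor of 1.76 of each other in CPM, the narrowest spread at that day among the 6 members called higher, and at day 14 sham and TBI overlapped. At day 1 it rose by 5.58 ± 0.742 (SE) on the log2 scale, with an adjusted p of 0.000156 and a ratio of 49.7 in summed counts (exact interval 28.3 to 96.4). At day 14 the ratio was 2.48 with an interval of 0.989 to 7.03 that reaches no change, and the log2 fold change was 1.30 (adjusted p = 0.633), or 0.06 without TBI day 14 replicate 1. TBI day 14 was lower than TBI day 1 by -5.78 on the log2 scale (adjusted p = 6.28e-06), and the effects of the 2 days differed by 4.28, short of a call (adjusted p = 0.0791). From the top the groups were ordered TBI day 1, sham day 1, TBI day 14 and sham day 14, with a call at the first step only. Its receptor Cxcr2 had 2 and 0 counts in sham day 1, 52, 211, 91 and 46 in TBI day 1, 0, 0, 0 and 2 in sham day 14, and 0, 0, 2 and 1 in TBI day 14, and rose at day 1 (ratio of summed counts 91.4, exact interval 25.1 to 757, adjusted p = 0.00102). Neutrophil markers were higher in the same libraries, 4 of the 6 tested of 10 listed (11.2% of all genes tested were). Their sums were 30.6 to 76.6 CPM in TBI against 4.66 to 10.4 in sham at day 1. Among those not tested, Mpo (myeloperoxidase) had 1, 1, 2 and 2 counts in TBI against 6 and 3 in sham. Camp had 0, 4, 9 and 0 against 7 and 2, and Ngp had 5, 2, 10 and 1 against 1 and 7. Ltf was at 0 in every day 1 library. At day 14, where Cxcl1 and Cxcr2 were not called, 2 of the 6 neutrophil markers (Csf3r and Fcnb) were higher, as were 4.07% of all genes. The sums were 17.3 to 29.7 CPM in TBI against 5.64 to 7.62 in sham. Csf3r alone gave 14.0 to 25.9 CPM in TBI and 4.72 to 6.10 in sham. S100a8 and S100a9 were among those not called by edgeR (log2 fold changes -0.27 and 1.21, adjusted p = 0.973 and 0.414). The part of these markers in Cxcl1 was not tested.

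Cxcl10 (interferon gamma-induced protein 10) is a CXCR3 ligand and an interferon target. Its counts were 10 and 2 in sham day 1 and 31, 611, 31 and 27 in TBI day 1, so that replicate 2 stood alone. At day 14 it had 10, 8, 10 and 6 in sham and 61, 34, 37 and 231 in TBI, with replicate 4 highest. No other member varied so much within an injured group, by a factor of 20.5 in CPM at day 1. The day 1 log2 fold change was 4.55 (SE 1.51, adjusted p = 0.0469), and the call held in 5 of 14 fits that left out 1 library each, with values from 2.18 to 6.21. Without TBI day 1 replicate 2 it was 2.18 (adjusted p = 0.108), without sham day 1 replicate 1, the choroid plexus library, 6.21 (adjusted p = 0.0844) and without sham day 1 replicate 2 it was 3.74 (adjusted p = 0.3). Leaving out any sham day 14 library, or TBI day 14 replicate 1 or 2, hardly moved the value, at 4.55, but gave adjusted p of 0.0515 to 0.0611. Limma-voom did not call it either (3.64, adjusted p = 0.21), but against sham day 14, where 25.0% of all genes were called higher and 21.0% lower, it was called (3.86, adjusted p = 0.00844). At day 14 the log2 fold change of 3.32 was not called (adjusted p = 0.118), although it was called without TBI day 1 replicate 2 (adjusted p = 0.00616), which has no part in the day 14 means but enters the shared estimate of spread. The 2 injured groups did not differ by the test (log2 fold change -0.54, adjusted p = 0.654). The groups were ordered TBI day 14, TBI day 1, sham day 14 and sham day 1, with a call at the middle step only. Cxcr3, its receptor, had 27, 12, 12 and 0 counts in TBI day 1 against 4 and 0 in sham and was not called (log2 fold change 2.49, adjusted p = 0.209).

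Cxcl16, a transmembrane chemokine and scavenger receptor that binds CXCR6, was raised at both days. Counts were 341 and 104 in sham day 1, 470, 1593, 1507 and 1300 in TBI day 1, 116, 89, 124 and 109 in sham day 14, and 366, 325, 560 and 729 in TBI day 14. In log2 CPM the groups had means of 3.25 ± 1.35 (SD, n = 2), 5.65 ± 0.70 (n = 4), 2.69 ± 0.22 (n = 4) and 4.74 ± 0.42 (n = 4). TBI day 1 replicate 1 was the low library of its group, and sham day 1 replicate 1, which carried the choroid plexus transcripts, was above the other 5 sham libraries. The rise was 4.69-fold at day 1 (adjusted p = 0.0063) and 4.29-fold at day 14 (SE 0.384 on the log2 scale, adjusted p = 0.00355). Without sham day 1 replicate 1 the day 1 log2 fold change was 3.49 (adjusted p = 0.00109), and without replicate 2, leaving the choroid plexus library as the sole sham, it was 1.56 and not called (adjusted p = 0.0738). TBI day 14 was lower than TBI day 1 by -0.98 on the log2 scale (adjusted p = 0.0418). In the order TBI day 1, TBI day 14, sham day 1 and sham day 14, the lower 2 steps were not called (adjusted p = 0.0684 and 0.194). Its receptor Cxcr6 had at most 4 counts in any library and was not tested.

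Cxcl12 (stromal cell-derived factor 1) is the CXCR4 ligand that positions progenitors in the dentate gyrus. Counts were 3466 and 4936 in sham day 1 and 1041, 2262, 3257 and 2372 in TBI day 1. They were 3254, 4437, 3748 and 4429 in sham day 14 and 3193, 3777, 3933 and 4731 in TBI day 14. Mean log2 CPM was 7.69 ± 0.20 (SD, n = 2), 6.56 ± 0.61 (n = 4), 7.84 ± 0.18 (n = 4) and 7.77 ± 0.15 (n = 4) in these groups, so all 4 injured libraries of day 1 lay below the other 10, replicate 1 the lowest. It fell 2.06-fold at day 1 (log2 fold change -1.05, SE 0.263, adjusted p = 0.0129) and overlapped sham at day 14 (-0.07, SE 0.221, adjusted p = 0.96), with the sign changing when sham day 14 replicate 2 was left out. TBI day 14 was higher than TBI day 1 by 1.13 (adjusted p = 0.00123). In the order sham day 14, TBI day 14, sham day 1 and TBI day 1, only the last step was called. The receptor Cxcr4 moved the other way, with 54 and 28 counts in sham day 1 against 102, 226, 287 and 191 in TBI day 1 (log2 fold change 2.11, SE 0.455, adjusted p = 0.0054), and 0.31 at day 14 (adjusted p = 0.819). Sham day 14 had 72, 63, 109 and 160 counts of Cxcr4. In CPM these were 3.79 to 8.71, above sham day 1 (2.91 and 1.29) and overlapping TBI day 1 (5.29 to 13.2). The day 1 rise of Cxcr4 thus depends on the low sham day 1 pair. Cxcr7, the older symbol of the CXCL12 scavenger receptor Ackr3, had a log2 fold change of 0.09 at day 1 (adjusted p = 0.86).

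Cx3cl1 was abundant in every library, with counts of 11794 and 15956 in sham day 1, 4788, 9082, 9895 and 9952 in TBI day 1, 9833, 14313, 15454 and 15844 in sham day 14, and 13387, 16150, 16624 and 17368 in TBI day 14. Mean log2 CPM was 9.42 ± 0.15 (SD, n = 2), 8.53 ± 0.40 (n = 4), 9.64 ± 0.20 (n = 4) and 9.80 ± 0.08 (n = 4), with every injured library of day 1 below all others and replicate 1 again lowest. It fell 1.81-fold at day 1 (log2 fold change -0.85, SE 0.202, adjusted p = 0.00909), and the day 14 value was 0.16 (SE 0.169, adjusted p = 0.82). The effects of the 2 days differed by -1.01 (adjusted p = 0.0471), a call that held in 3 of 14 fits that left out a library and was missed by limma-voom (-1.06, adjusted p = 0.0575). In the order TBI day 14, sham day 14, sham day 1 and TBI day 1, only the last step was called. Its receptor, Cx3cr1 of microglia, had 913 and 577 counts in sham day 1, 683, 1001, 1224 and 1154 in TBI day 1, 292, 355, 619 and 508 in sham day 14, and 957, 802, 1008 and 1849 in TBI day 14. Cx3cr1 rose at day 14 (log2 fold change 1.34, SE 0.265, adjusted p = 0.00601) and was 0.28 at day 1 (adjusted p = 0.575), and the 2 effects were not called different (adjusted p = 0.165). In CPM, sham day 1 replicate 1, the choroid plexus library, had 49.2 and replicate 2 had 26.6. TBI day 1 had 35.4 to 56.1 CPM and sham day 14 had 19.1 to 33.5. The day 1 groups thus overlap only through sham day 1 replicate 1, and the day 1 value depends on that library. The sheddase genes Adam10 and Adam17, whose proteases cut CX3CL1 and CXCL16 from the membrane, were not called at either day.

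Neuron markers fell with Cxcl12 and Cx3cl1 at day 1: 5 of 10 were lower (7.93% of all genes tested were). Their sums were 3060 to 6630 CPM in TBI against 8530 and 10200 in sham, with 3060 in TBI day 1 replicate 1. Without that library the day 1 log2 fold changes were -0.84 for Cxcl12 (adjusted p = 0.00717) and -0.70 for Cx3cl1 (adjusted p = 0.00537). Without sham day 1 replicate 2 neither was called (-0.90, adjusted p = 0.132, and -0.75, adjusted p = 0.103), whereas against the 4 sham day 14 libraries both were (-1.20, adjusted p = 0.000579, and -1.08, adjusted p = 0.000156). At day 14 none of the 10 neuron markers was called by edgeR, and the sums were 6330 to 7760 against 7490 to 9270 CPM. Microglia markers went with Cx3cr1 at day 14, when 7 of 9 were higher (821 to 1340 CPM against 387 to 508), as were 4.07% of all genes. At day 1 (395 to 515 CPM against 361 and 535) 1 was higher and 3 were lower. Of all genes tested, 11.2% were higher and 7.93% lower at day 1. The part of cell make-up in these values was not tested.

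**Figure D3:**
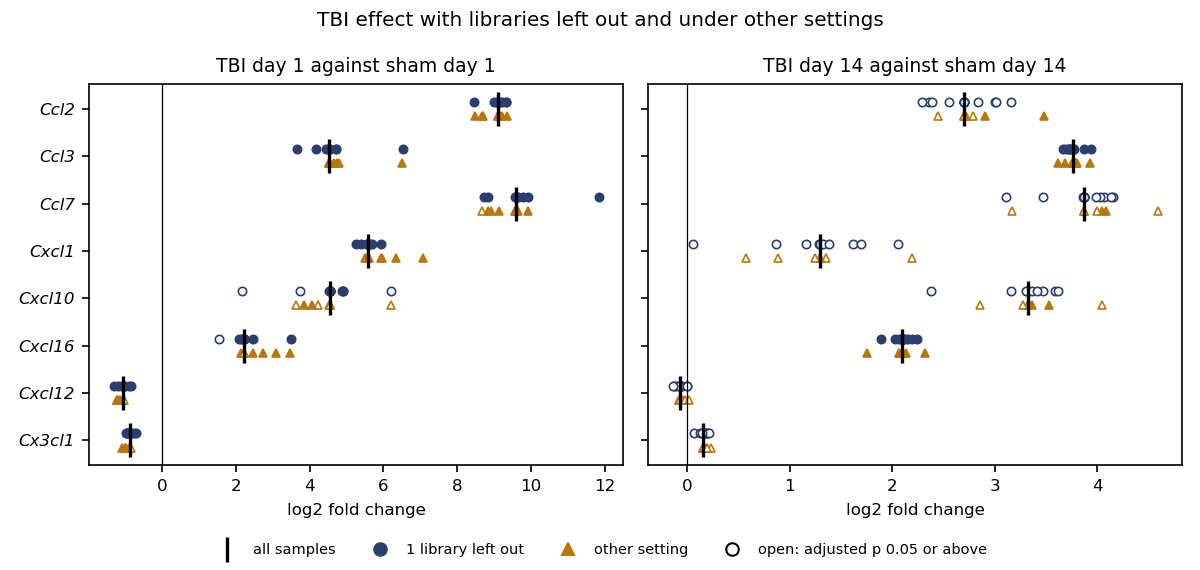
Log2 fold change of TBI against sham (x axis) for each chemokine at day 1 (left) and day 14 (right): black bars are all samples, blue circles leave out 1 library each, orange triangles are other tests, filters or baselines, and open symbols missed the adjusted p of 0.05. Ccl2, Ccl3 and Cxcl1 stay filled at day 1, Ccl3 and Cxcl16 at day 14, and Cxcl10 spans 2.18 to 6.21 at day 1.

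Across the 2 injured groups, 4 members were lower at day 14 than at day 1 (Ccl2, Ccl7, Cxcl1 and Cxcl16, where 21.9% of all genes were) and Cxcl12 and Cx3cl1 were higher (17.6% of all genes were). The sham groups served as the background. No member was called between sham day 1 and sham day 14, nor had an unadjusted p under 0.05, by edgeR, limma-voom or DESeq2, although 11.3% of all genes were called higher and 7.88% lower. Ccl2, Ccl3, Ccl7 and Cxcl1 had at most 7 counts in any sham library, so for them this test could hardly show a difference. Day of collection cannot be told apart from anything else that changed between the 2 days. For the difference between the effects of the 2 days, Ccl2 was the 1 member called higher at day 1 (2.24% of all genes were) and Cx3cl1 the 1 called lower (1.44% of all genes were).

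Another 6 lists of the pathway were examined, 107 genes in all, of which 73 were tested. Of these, 32 rose and none fell at day 1 by edgeR, where 11.2% of all genes rose and 7.93% fell. At day 14, 22 of them rose and none fell by edgeR, where 4.07% of all genes rose and 0.365% fell. Limma-voom and DESeq2 also called 0 lower at both days, and 4 and 2 were lower at an unadjusted p under 0.05 by edgeR. Without sham day 1 replicate 2, fewer of the 73 rose at day 1. That fit leaves a sole sham library at day 1, and fewer of all genes were called in it too. Genes of the lists too could pass the filter by being high after injury. The shares of all genes that rose, 11.2% at day 1 and 4.07% at day 14, stand beside each list count that follows. Among 17 other chemokine ligands tested of 27 counted, 7 rose at day 1 and 2 at day 14. Cxcl13, a B cell attractant, had 7 and 0 counts in sham day 1 and 55, 119, 256 and 93 in TBI day 1 (31.9-fold, adjusted p = 0.0026). Ccl12, a further monocyte attractant, was at 0 in all 6 sham libraries and had 0, 12, 48 and 40 counts in TBI day 1, at least 7.46-fold higher in mean CPM than a floor of 3 counts per library (adjusted p = 0.0407). Ccl22, a CCR4 ligand, had 0 and 0 counts against 11, 29, 5 and 5, at least 3.67-fold higher on the same floor (adjusted p = 0.0261), and the eosinophil attractant Ccl11 had 0 and 0 against 22, 1, 5 and 16, at least 3.55-fold higher (adjusted p = 0.0342). The remaining 3 that rose were Ccl6, Ccl17 and Cxcl11. At day 14 Cxcl17 (2.32, adjusted p = 0.00162) and the CXCR3 ligand Cxcl11 (2.61, adjusted p = 0.034) rose, Cxcl11 from 1, 2, 1 and 2 counts to 12, 6, 10 and 12. Cxcl2 and Cxcl3, neutrophil attractants related to Cxcl1, were not tested and reached at most 11 and 10 counts.

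Of 10 receptors tested of 17 counted, 5 rose at day 1 and 2 at day 14. Those of day 1 included Cxcr2 and Cxcr4, described above, with Ccr1 (log2 fold change 3.98, SE 0.919, adjusted p = 0.00809) and Cxcr5 (2.39, adjusted p = 0.0273), and those of day 14 included Cx3cr1. Ccr1, the shared receptor of CCL3 and CCL7, had 10 and 2 counts in sham day 1 against 55, 289, 62 and 49 in TBI day 1, and 0 to 4 counts in every day 14 library. Of 3 atypical receptors tested, Ccrl2, which presents chemerin, rose at day 14 (1.97, adjusted p = 0.0366).

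**Figure D4:**
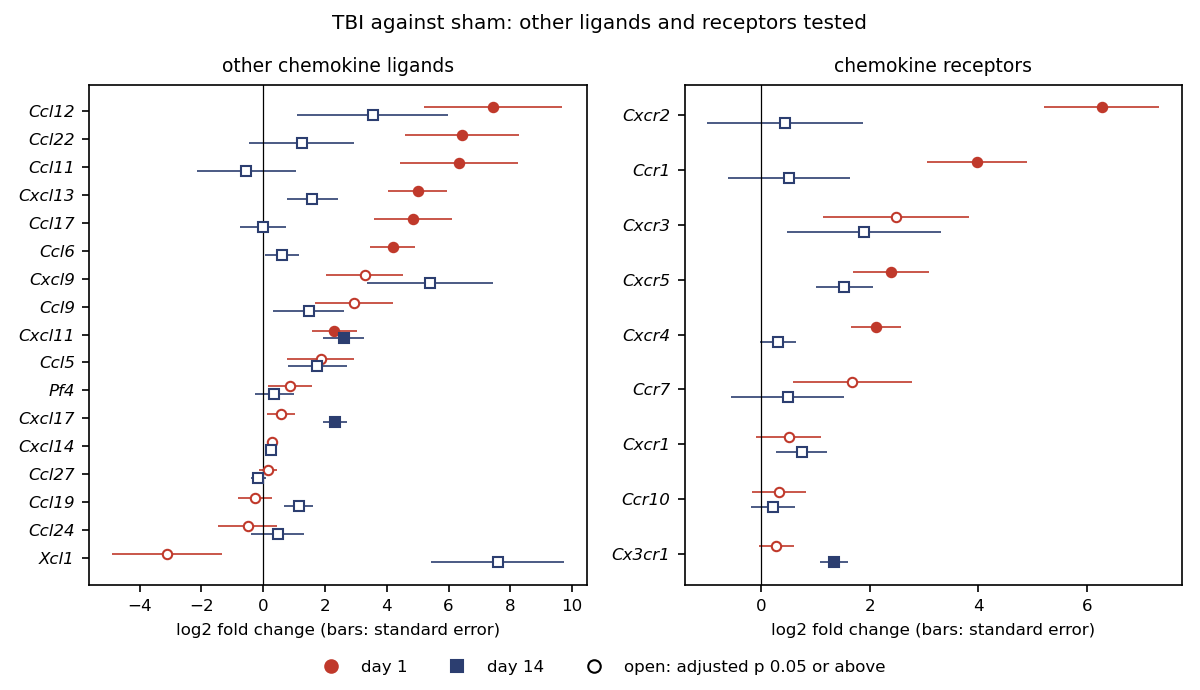
Log2 fold change of TBI against sham (x axis, bars the standard error) for the other chemokine ligands (left) and chemokine receptors (right) that were tested and are reported here, ordered by the day 1 value; red circles are day 1, blue squares day 14, and filled symbols passed the adjusted p of 0.05. Cxcr2 and Ccr1 are filled only at day 1 and Cx3cr1 only at day 14.

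Of 9 chemokine proteases, sheddases and their inhibitor tested, 3 rose at each day. Timp1, the metalloproteinase inhibitor, rose by 6.31 at day 1 (adjusted p = 2.46e-06) and 1.69 at day 14 (adjusted p = 0.00389), and Mmp9 rose at day 1 (2.25, adjusted p = 0.000498). Macrophage elastase, Mmp12, which trims chemokines, was at 0 in all 6 sham libraries, at least 55.0-fold higher in mean CPM at day 1 and 5.74-fold higher at day 14 against the same floor (adjusted p = 0.00369 and 0.0324), and Mmp2 rose at day 14 (1.55, adjusted p = 0.036). Mmp12 had 116, 251, 230 and 139 counts in TBI day 1 but 6, 9, 2 and 57 in TBI day 14. Its day 14 mean therefore rests mostly on replicate 4. Of 18 genes of receptor signaling, 5 rose at each day, among them the leukocyte genes Rgs1, Rac2, Vav1 and Pik3r5 at both (day 1 log2 fold changes 3.26, 2.65, 2.27 and 1.98, day 14 values 1.89, 2.13, 2.14 and 1.65). Of 16 NF-kappaB and interferon regulators, 12 rose at day 1 and 9 at day 14. At day 1 Il1b (6.67), Bcl3 (4.92), Tnf (2.83) and Tlr4 (1.70) had the largest log2 fold changes among them, and at day 14 Bcl3 (2.09), Tlr4 (1.97), Isg15 (1.69) and Irf7 (1.47), all with adjusted p of at most 0.0174.

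The members differed in which other genes tracked them over the 14 libraries, by Pearson's r of log2 CPM, given as a description since all points share the 4 groups. Ccl2 was most like Plin2, a lipid droplet protein (r = 0.99), Cebpd and Hspb1 (r = 0.98 for both). Ccl7 was most like Plin2, Flnc (r = 0.98 for both) and Stat3 (r = 0.97), and the 2 chemokines had r = 0.98 with each other. Ccl3 was most like Rac2 and Tyrobp, genes of myeloid cells (r = 0.99 for both), and Arl11 (r = 0.98). Cxcl1 was most like Cst7, Clec4a2 and Msn (r = 0.98 for all 3), and Cxcl16 like Pik3ap1, Ctsc and Sh3bp2 (r = 0.97 for all 3). Cxcl10 was most like Pygl (r = 0.96), Map3k14, the NF-kappaB-inducing kinase (r = 0.95), and Igtp, an interferon-induced GTPase (r = 0.93). Cxcl12 was most like Gdf10, Thy1 and Lingo1 (r = 0.97 for all 3). Cx3cl1 was most like Chst1, Olfm1 (r = 0.98 for both) and Dkk3 (r = 0.97), and the 2 homeostatic members had r = 0.95 with each other.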

How the data were processed

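RNA-seq was done on the injured-side hippocampus of 14 rats. The authors aligned reads to rn5 with STAR 2.4.2a and counted them per gene with featureCounts 1.5.0, and deposited raw counts, which were whole numbers. Strand settings are not given in the sources used here. From these counts edgeR 4.0.16 was run with TMM factors, its default filter on low counts, 1 coefficient per group (all 14 libraries sharing the estimate of spread) and quasi-likelihood tests, in R 4.3.3, after tests on simulated data. limma-voom (limma 3.58.1), DESeq2 1.42.0 and the other settings of the closing section were alternatives. Replicate pairs differed by more than counting noise (chi-squared per degree of freedom 12.6 to 166), so each library counted once. Nothing in the labels names separate batches. The paper's legend for its expression trajectories mentions a batch correction, but its text does not say which libraries formed a batch. No batch term entered the main fit here. Groups came from the labels. All 9 members were named in full. From each other list the 4 genes with the largest change among those called at each day were named, with the receptors of the members, genes not tested (by counts) and 3 genes most like each member. Ccl6, Ccl17 and the genes given as counts of 5 or fewer outside that rule were chosen after their values were seen. The members and lists were chosen with earlier results of these data known. Counting intervals are exact conditional binomial intervals of summed counts at 95%, for counting error only. Promoters and gene neighbours are from GRCr8 and motifs were searched with Python 3.11.15. The 4 H3K4me3 peak lists were not used, since they give rn5 positions without gene names. Each rat is labelled as its own sample, so p-values measure the spread between these samples. The values of 1 gene of the lists are not reported here, though it is included in the list counts.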

Additional observations from a re-analysis of the deposited data

Results flagged for a closer look

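Of 27 groups of 4 libraries examined for the 9 members, 4 held a library whose gap to the next, as a share of the range of log2 CPM, passed Dixon's 95% limit; chance gives about 1 in 20 groups. Cxcl10 in TBI day 1 replicate 2 was high, with a gap of 0.91 of the range (611 counts against 27 to 31). Cxcl16 in TBI day 1 replicate 1 was low, with a gap of 0.835 of the range (470 counts against 1300 to 1593). Cx3cl1 in sham day 14 replicate 1 was low, with a gap of 0.893 of the range (9833 counts against 14313 to 15844). Ccl7 in sham day 14 replicate 4 was low, with a gap of 0.857 of the range, which is a step from 1 count to 0.

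The TBI effect at day 1 differed from that at day 14 by edgeR's interaction test in 2 members, by 6.41 on the log2 scale for Ccl2 (adjusted p = 0.0455) and by -1.01 for Cx3cl1 (adjusted p = 0.0471). Among the other genes named, it differed by 3.58 for Ccl6, 2.83 for Bcl3, 5.1 for Il1b, 2.84 for Mmp9, 4.62 for Timp1, 2.69 for Tnf and -2.58 for Mmp2. Mmp2 stood at 34.2 CPM in sham day 1 replicate 1, the choroid plexus library, but at 6.18 in sham day 1 replicate 2. The TBI day 1 libraries had 5.76 to 13.3 CPM, so the Mmp2 difference rests in part on that library. It is not given here without it.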

How the results depend on the processing

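Of 389 recomputed log2 fold changes of single members for TBI against sham at day 1 and day 14, 353 kept their direction and their side of the threshold, 22 were no longer called, 12 became called and 2 changed sign. The latter were both Cxcl12 at day 14, whose value ran from -0.1404 to 0.0035 with 1 library left out, the latter without sham day 14 replicate 2, and was 0.022 when the 3 libraries high in choroid plexus markers were left out, an alternative chosen after seeing the data. Members called lower at day 1 were 2, but 1 at an adjusted p under 0.01 and 0 with only the groups compared. In that last fit, calls over all genes at day 1 also fell, from 1437 to 557 higher and from 1021 to 94 lower. Members called higher at day 14 were 2, but 5 by DESeq2 and 5 with all 6 sham samples as baseline. For the difference between days, 1 member was called in each direction. None was called higher at an adjusted p under 0.01, by limma-voom (0) or without the choroid plexus libraries (0), and DESeq2 called 2; none was called lower at the stricter p, by limma-voom or without those libraries (0 each). Of the 73 other pathway genes, 32 were higher at day 1, but 21 at an adjusted p under 0.01 and 19 with only the groups compared; none was lower, but 2 were with all 6 sham samples or with sham day 14 as baseline. At day 14 none was lower, but 1 was with only the groups compared. The difference between days, uncalled for Ccl3, Cxcl10 and Cxcl16, also changed sign with 1 library left out (-0.10 to 2.76, -1.14 to 2.89 and -0.54 to 1.39). The cause was not tested.

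With 1 library left out at a time, members called at day 1 ran from 4 to 6 higher and 0 to 2 lower, at day 14 from 2 to 5 higher, for the difference between days from 0 to 2 in each direction, between injured groups from 3 to 5 lower and 2 to 3 higher, and between sham groups from 0 to 1 higher. The other pathway genes ran from 15 to 35 higher and 0 to 1 lower at day 1 and 16 to 25 higher at day 14. The 0 lower and the 15 higher at day 1 came without sham day 1 replicate 2, as did the 1 sham call, and the 5 at day 14 without TBI day 1 replicate 2. Without a sham day 1 library, the other is assumed to vary like the rest. Calls over all genes at day 1 fell as well without sham day 1 replicate 2. Of the calls of the difference, Ccl2 was held without TBI day 1 replicate 1, 2 or 4 or TBI day 14 replicate 1, and Cx3cl1 without TBI day 1 replicate 1, 3 or 4.

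No pairing of libraries by replicate number was assumed. Deviations of same-numbered sham and TBI libraries from their group means had correlations of 0.127 and 0.073 at day 1 and -0.038, 0.131, 0.24 and 0.115 at day 14. With 2 sham libraries at day 1, their deviations mirror each other, so the day 1 values are not independent. Low correlations do not show that the libraries were unpaired. With the replicate number as a block, 5 members were higher and 2 lower at day 1, 2 were higher at day 14, and for the difference between days 0 were higher and 1 lower. Low sham counts limit the size of the Ccl2, Ccl7 and Ccl4 ratios, and 2 sham libraries at day 1 limit all day 1 values.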
